A study of Mus musculus with 27 samples.

Results

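The genes examined here are the ligands and receptors of axon guidance, 68 of the 25209 genes in the deposited tables. They were chosen by a rule on the symbol that uses no measured value, though with earlier results of these data known. Among them are 14 Eph receptors, 8 ephrins, 7 class 3 semaphorins, 13 semaphorins of classes 4 to 7 and 9 plexins. The others are 2 neuropilins, 3 Slits, 4 Robos, 4 netrins and 4 Unc5 receptors. RNA was sequenced from V6.5 mouse embryonic stem cells, WT or with Zfp512b disrupted on both alleles by insertions behind exon 3 that carry transcriptional terminators together with mCherry or a puromycin resistance gene. The disrupted lines KO4 and KO8 are 1 clone each, and the WT cells did not pass through editing and selection, so the disruption and the history of a clone cannot be told apart. Naive cells (day 0, 2iLIF medium, 3 libraries per group), primed cells (day 2, 2 per group), NPC cultures (neural progenitors from embryoid bodies at day 10, with 5 µM retinoic acid, 2 per group) and CM cultures (cardiomyocytes from embryoid bodies at day 7.5, with vitamin C, 2 per group) gave 27 libraries in all. The question was which guidance genes depend on Zfp512b at each stage, and whether both clones show it.

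These molecules steer growing axons and also migrating cells and vessels. Ephrins sit in the membrane of one cell and bind Eph receptor tyrosine kinases on its neighbour. Secreted class 3 semaphorins bind neuropilins, which hand the signal to plexins, whereas most membrane-bound semaphorins bind plexins directly. Slits are secreted and repel cells through Robo receptors, and netrins attract through Dcc and repel through Unc5 receptors. Some members are best known from blood vessels, among them Robo4, Plxnd1, Nrp1, Efnb2, Ephb4 and Sema3g.

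The deposited tables give each gene's base mean, its mean normalized read count over the libraries compared. Both tables of a stage share their WT libraries, so reads per library could be recovered at moderate levels. Of the sets of whole reads that give both printed values, 1 was accepted where it held at least 99% of a weight. The weight favours libraries of a group that lie close together, so the recovery rests in part on that assumption. The recovered reads are printed below as normalized reads, that is reads divided by the size factor of the library. Recovery reached 100% of the genes under a base mean of 1000 at the primed and CM stages, 99.8% in NPC cultures, and 99.9% under a base mean of 100 in naive cells, where 9 libraries share the sum. A library held approximately 15.1 to 39.7 megareads, with naive libraries the deepest. The libraries carry no replicate number and are called a, b and c. Fold changes are on the log2(normalized reads + 1) scale with their standard error (SE), and a gene was called at an adjusted p under 0.05 (limma, Benjamini-Hochberg over all genes tested). With nothing that ties libraries to separate cultures, the p-values measure the spread between these libraries, which may be technical.

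Zfp512b itself was recovered at 2 stages. In primed cells it had 929 and 977 normalized reads in WT, 191 and 219 in KO4 and 184 and 154 in KO8, and in CM cultures 1117 and 1061 in WT, 184 and 209 in KO4 and 155 and 173 in KO8. Each clone library lay far below WT, as labelled. The KO8 libraries of the NPC stage lay furthest apart of the pairs at the 3 later stages. Their median absolute difference was 0.23 on the log2 scale over genes, against 0.14 to 0.20 for the other pairs. In CM cultures of KO4, the 4 recovered of 10 cardiomyocyte markers were nearly absent. They summed to 74.9 and 84.1 normalized reads, against 3698 to 4169 in WT and 3160 to 3340 in KO8. Only 1 of these 4 was tested, and the markers without recovered reads give no value for KO4. Above its limit, recovery succeeds mainly where 1 of the tables has a low mean. The recovered markers may therefore be chosen for a difference between the clones. Genes on chromosome 8 were raised in both clones at every stage, with medians between 0.40 and 0.57 on the log2 scale. Of the members, Efnb2, Nrp1 and Unc5d lie there.

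Levels were first described across stages from the authors' base means, per kilobase of exon and per megaread of the table's total, averaged over both tables of a stage. These values pool WT and clone libraries and come from tables normalized separately, so they are a description without a test. Naive cells had mainly Plxnb2 (32.9), Sema4b (29.8), Ephb4 (26.8), Epha2 (26.7) and Epha4 (25.5). Epha2 led in primed cells (51.6), where the Slits were at their lowest, with a family sum of 0.37. In NPC cultures Efnb2 (67.8), Plxnb2 (64.2), Efnb1 (54.3), Ephb4 (51.8), Ephb2 (36.5) and Robo1 (33.4) stood highest. In CM cultures Nrp1 (63.7), Unc5b (62.1), Efnb2 (58.7), Plxnd1 (46.8) and Ephb4 (45.9) led. Summed over both genes, the neuropilins stood at 1.97 in naive cells, 4.21 in primed cells, 35.9 in NPC cultures and 82.2 in CM cultures. The Robo family stood at 5.81 and 5.60 in the stem cell stages, 51.3 in NPC cultures and 17.6 in CM cultures. Epha6 and Plxnb3 stayed under a base mean of 10 in all tables.

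**Figure D1:**
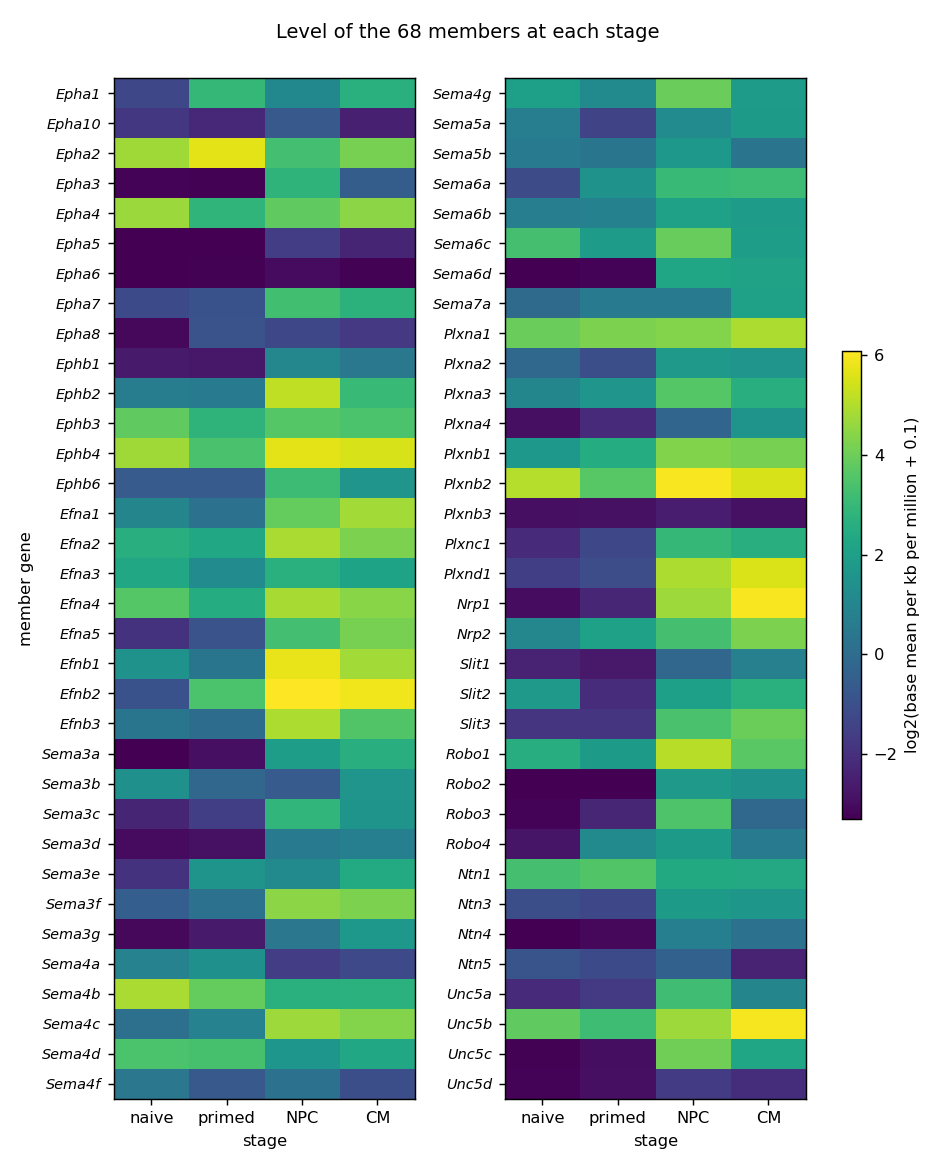
Level of each of the 68 members (rows, by family) at the 4 stages (columns), as log2 of the authors' base mean per kilobase and megaread plus 0.1, averaged over both tables of a stage. Nrp1, Slit3, Robo2, Sema3a, Sema6d and Unc5c are dark in naive and primed cells and brighter in NPC and CM cultures, while Sema4b and Epha2 are brightest in the stem cell stages.

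Among members whose reads were recovered, WT levels per kilobase of exon could be ordered within a stage. Efna1 and Efna4, ephrins tethered to the membrane by a lipid anchor, stood highest in CM cultures, at 663 and 425 normalized reads per kilobase. Efna4 had 674 and 686 normalized reads in the WT libraries and Efna1, whose transcripts are of similar length, 1119 and 1307, so these neighbours in the order did not overlap. In NPC cultures the order was Efna4 (497 per kilobase), Efna1 (247), Epha2 (171), Ephb6 (169) and Sema3c (161). The last 3 lie close together, and the WT libraries of Epha2 (844 and 759 reads) differ between themselves by as much. Members whose reads were not recovered are missing from these orders. Efna1 in CM cultures also lies above the limit of recovery. It could be placed because its reads were still recovered, which succeeds mainly where 1 of the tables has a low mean.

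In naive cells 17 members were tested. In KO4, 5 were called, 2 higher and 3 lower (29.4% of those tested, against 23.6% of all genes, of which 11.8% were higher and 11.8% lower). In KO8 4 were called, 3 higher and 1 lower (23.5%, against 22.0%, with 14.7% higher and 7.29% lower). Shared by both clones with one sign were 3 members, 2 higher and 1 lower (17.6%, against 13.2% of all genes, with 7.7% higher and 5.54% lower). These shares lie near those of all genes. Both clones were set against the same WT libraries, so the joint count is no independent repeat.

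Sema3e, a secreted semaphorin that signals through Plxnd1, fell most. It had 50.0, 85.0 and 65.9 normalized reads in the WT libraries, 15.6, 21.3 and 21.9 in KO4, and 18.8, 15.9 and 26.3 in KO8. All clone libraries lay under all WT libraries. The log2 fold change was -1.70 in KO4 (SE 0.28, adjusted p = 1.75e-05) and -1.67 in KO8 (SE 0.28, adjusted p = 4.58e-05). It lies at chr5:14025276-14256689 (mm9, plus strand).

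Epha1, an Eph receptor known from epithelia, rose in both clones. WT libraries had 22.8, 22.0 and 17.8 normalized reads, KO4 39.1, 64.0 and 41.7, and KO8 32.7, 68.4 and 69.3. No clone library reached down to the WT range, although KO8 spread about as widely as it differed. The log2 fold changes were 1.15 (SE 0.29, adjusted p = 0.00326) and 1.33 (SE 0.30, adjusted p = 0.00107). Ntn3, a netrin expressed in sensory ganglia and muscle, had 45.5, 53.0 and 47.0 normalized reads in WT, 87.9, 91.4 and 80.3 in KO4 and 74.2, 77.4 and 115 in KO8. Its log2 fold changes were 0.82 (SE 0.21, adjusted p = 0.0032) and 0.84 (SE 0.22, adjusted p = 0.00589), and in KO8 the call was lost without library KO8 c (adjusted p = 0.0844). An exon of Epha1 overlaps one of Zyx on the opposite strand in the mm9 annotation, and Ntn3 exons overlap those of Tbc1d24 and BC028777. Whether the counting used strand is not given in the sources used here, so reads of these pairs cannot be told apart. Other members described below also have exons that overlap those of another gene, among them Ntn1, Plxna4, Ephb1, Efna4 and Unc5a.

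The remaining naive calls were in a single clone each. Slit3, a secreted Robo ligand, had 49.1, 48 and 46 normalized reads in WT and 15.6, 14.2 and 36.5 in KO4 (log2 fold change -1.20, adjusted p = 0.00403). In KO8 it had 24.7, 41.7 and 25.2, a log2 fold change of -0.67 that missed the threshold (adjusted p = 0.0767). The difference between the clones was -0.53 (adjusted p = 0.344), so no difference between them was detectable. Between KO4 and KO8, 0 of 17 members passed in the limma fit (against 6.28% of all genes), 0 with voom weights, and 1 had an unadjusted p under 0.05. No share of all genes is given for the voom and unadjusted counts. The lowest adjusted p was that of Unc5a, with a difference of -1.11 (adjusted p = 0.0538).

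In primed cells 46 members were tested in both clones, more than at any other stage. KO4 had 8 calls among 48 tested members, 3 higher and 5 lower (16.7%, against 19.3% of all genes, with 7.86% higher and 11.4% lower). KO8 had 10 among 46, 6 higher and 4 lower (21.7%, against 16.2%, with 8.04% higher and 8.12% lower). Both clones shared 5 calls of one sign, 2 higher and 3 lower (10.9%, against 10.4% of all genes, with 4.81% higher and 5.62% lower). These shares are again close to those of all genes.

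Epha4, a receptor for both classes of ephrin, had the clearest rise. It had 512 and 525 normalized reads in WT, 1061 and 1057 in KO4, and 1000 and 962 in KO8. The libraries of each group lay close together and far from WT, with log2 fold changes of 1.03 (SE 0.08, adjusted p = 1.99e-12) and 0.92 (SE 0.08, adjusted p = 7.27e-18). Both calls held in each fit without 1 library. Efnb2, a transmembrane ephrin that marks arteries, had 682 and 650 normalized reads in WT, 1016 and 1221 in KO4 and 1112 and 981 in KO8. Its log2 fold changes were 0.74 (SE 0.08, adjusted p = 7.25e-09) and 0.65 (SE 0.08, adjusted p = 1.67e-11). Efnb2 lies on chromosome 8 (chr8:8617434-8661239, mm9), whose genes had medians of 0.40 in KO4 and 0.44 in KO8 in the same fits.

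Unc5b, a netrin receptor and dependence receptor, fell in both clones, from 965 and 1057 normalized reads in WT to 673 and 754 in KO4 and 786 and 931 in KO8. Its log2 fold change was -0.50 in KO4 (SE 0.08, adjusted p = 7.69e-06) and -0.24 in KO8 (SE 0.07, adjusted p = 0.015). Sema4g, a transmembrane semaphorin, had 195 and 219 normalized reads in WT, 183 and 115 in KO4 and 139 and 148 in KO8 (log2 fold changes -0.51, adjusted p = 0.0305, and -0.52, adjusted p = 0.0114). Epha1 had 522 and 436 in WT, 397 and 367 in KO4 and 377 and 368 in KO8. Its log2 fold changes of -0.32 (adjusted p = 0.0275) and -0.36 (adjusted p = 0.00982) point opposite to those in naive cells. On a scale on which genes outside chromosome 8 have a median of 0, the KO4 calls of Sema4g and Epha1 (adjusted p = 0.0539 and 0.0676) and the KO8 call of Unc5b (adjusted p = 0.0576) were lost. Leaving out 1 library also ended these 3 calls and the KO8 calls of Sema4g and Epha1: KO4 b or WT b for Sema4g in KO4 and KO8 a or WT b in KO8, KO4 b or WT a for Epha1 in KO4 and KO8 b or WT a in KO8, and KO8 a or WT b for Unc5b in KO8.

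**Figure D2:**
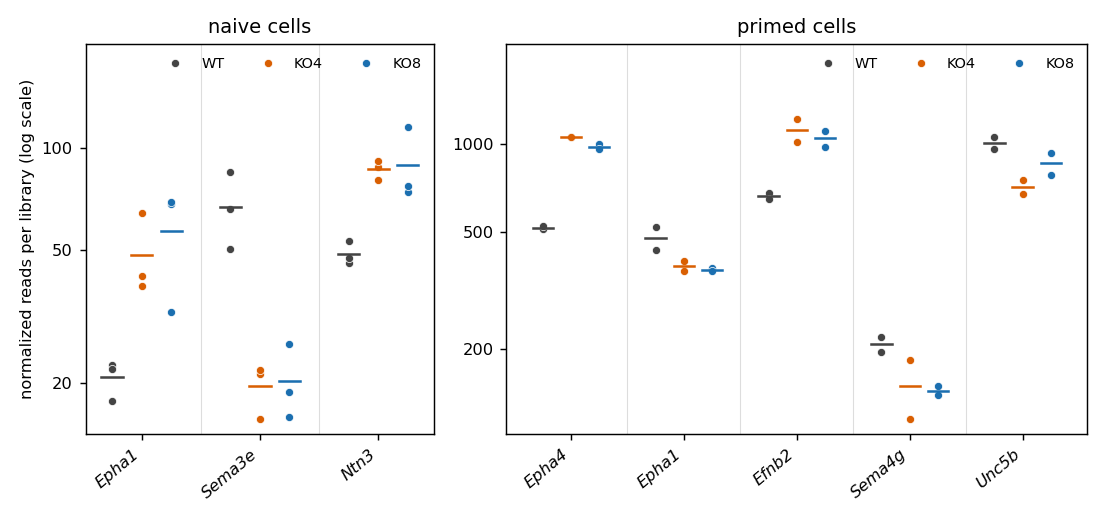
Normalized reads (log axis) of members called in both clones in naive cells (left, 3 libraries per group) and primed cells (right, 2 per group). Points are libraries and bars are group means. Epha1 lies above WT in the naive clones and below WT in the primed clones, and the primed Epha4 libraries separate most clearly, at 512 and 525 in WT against 962 to 1061 in the clones.

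Nrp2, a co-receptor for class 3 semaphorins, was the member that differed between the primed clones (1 of 46, against 3.02% of all genes). It had 695 and 734 normalized reads in WT, 580 and 545 in KO4, and 765 and 649 in KO8. KO4 lay below both others, and KO8 overlapped WT. The difference between KO4 and KO8 was -0.32 (SE 0.09, adjusted p = 0.0268), and it was lost without KO4 b or KO8 a. Sema5b, a transmembrane semaphorin with thrombospondin repeats, was called in KO8 with 168 and 175 normalized reads in WT and 98.7 and 87.9 in KO8 (log2 fold change -0.87, adjusted p = 9.31e-05). In KO4 it had 126 and 129, at -0.42 (adjusted p = 0.0605).

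In NPC cultures 39 members were tested. KO4 had 16 calls, 8 higher and 8 lower (41.0%, against 17.7% of all genes, with 9.91% higher and 7.81% lower). KO8 had 10, 6 higher and 4 lower (25.6%, against 6.87%, with 4.49% higher and 2.38% lower). Both clones shared 6 calls of one sign, 3 higher and 3 lower (15.4%, against 5.58%, with 3.59% higher and 1.99% lower). The median absolute log2 fold change of the members was 0.46 in KO4 and 0.50 in KO8, beside 0.20 and 0.24 over all genes. These counts depend on single libraries: KO8 calls numbered 19 without library KO8 a and 0 without either WT library, which leaves a lone WT sample assumed to vary like KO8. The same fits moved the joint count to 10 and 0. With all libraries of the stage in 1 fit, KO4 had 6 calls in place of 16. No share of all genes is given for these refits, so they limit the counts above and are no result about the members.

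A netrin, a semaphorin and a plexin rose in both NPC clones. Ntn1, the main attractive cue of the floor plate, had 362 and 298 normalized reads in WT, 577 and 696 in KO4, and 785 and 1009 in KO8. The log2 fold change was 0.95 in KO4 (SE 0.13, adjusted p = 5.2e-06) and 1.44 in KO8 (SE 0.16, adjusted p = 0.00616). Sema5b had 165 and 229 in WT, 388 and 554 in KO4, and 411 and 886 in KO8, the last pair being the widest. Its log2 fold changes were 1.25 (SE 0.17, adjusted p = 6.09e-06) and 1.63 (SE 0.34, adjusted p = 0.0317). Plxna2, a receptor for class 6 semaphorins and, with neuropilins, class 3, had 679 and 669 in WT, 1011 and 1077 in KO4 and 934 and 974 in KO8. It rose by 0.63 (SE 0.09, adjusted p = 7.23e-06) and 0.50 (SE 0.10, adjusted p = 0.026).

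A pair of class 3 semaphorins and Robo2 fell in both. Sema3c, a secreted cue for cardiac neural crest and outflow tract, had 1236 and 1059 normalized reads in WT, 481 and 589 in KO4, and 613 and 594 in KO8. The log2 fold changes were -1.10 (SE 0.10, adjusted p = 3.15e-08) and -0.92 (SE 0.11, adjusted p = 0.00664). Sema3d had 239 and 206 in WT, 139 and 149 in KO4, and 76.5 and 71.1 in KO8, with log2 fold changes of -0.62 (SE 0.17, adjusted p = 0.0132) and -1.57 (SE 0.22, adjusted p = 0.0127). Robo2, a Slit receptor of longitudinal axons, had 1219 and 1027 in WT, 720 and 813 in KO4 and 663 and 531 in KO8, at -0.55 (SE 0.09, adjusted p = 9.94e-05) and -0.91 (SE 0.14, adjusted p = 0.0149). No clone library of these 6 members reached the WT range. The KO4 call of Sema3d was lost without KO4 a or WT a, the other KO4 calls held in each fit without 1 library, and all 6 KO8 calls were lost without either WT library.

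**Figure D3:**
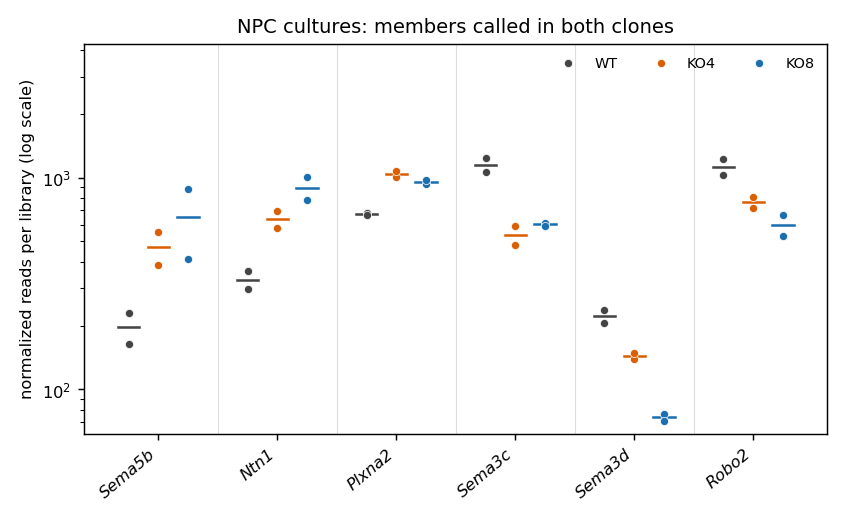
Normalized reads (log axis) in NPC cultures of the 6 members called in both clones, with 2 libraries per group as points and group means as bars. Sema5b, Ntn1 and Plxna2 lie above WT and Sema3c, Sema3d and Robo2 below it in both clones. The KO8 libraries of Sema5b lie far apart, at 411 and 886.

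Slit2, with a base mean over the limit of 1000 but reads that were still recovered, had 787 and 824 normalized reads in WT, 1139 and 1161 in KO4 and 1200 and 1102 in KO8. In a fit extended to such genes, an alternative added after seeing the data, it rose by 0.51 in each clone (adjusted p = 4.87e-05 in KO4 and 0.0226 in KO8). Of the KO4 calls not shared with KO8, Plxnc1, a receptor of Sema7a, had 741 and 728 in WT, 1080 and 1127 in KO4, and 1227 and 777 in KO8. Robo4 had 189 and 217 in WT, 376 and 312 in KO4 and 211 and 192 in KO8. The clones did not differ detectably for either (adjusted p = 0.672 and 0.0636). In the limma fit 0 of the 39 members passed (against 1.25% of all genes), and 0 with voom weights, while 15 had an unadjusted p under 0.05. No share of all genes is given for that unadjusted count or for the fits that follow, so they are no result about the members. Without library KO8 a, 17 members differed between the clones, and without KO8 b 7 did.

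Markers of several cell types moved alongside. All 5 recovered of 8 neuron markers were called higher in KO4 and 4 in KO8, and their summed level was 1216 to 1231 normalized reads in WT, 2297 to 2666 in KO4 and 2371 to 4186 in KO8. Of 10 neural progenitor markers, the 7 recovered summed to 1619 to 1889 in WT, 2761 to 2946 in KO4 and 3076 to 5548 in KO8, with 6 of 6 tested called higher in KO4 and 3 of 6 in KO8. The 5 blood markers summed to 342 to 363 in WT, 132.5 to 139 in KO4 and 583 to 604 in KO8, and the endoderm markers, 5 of 6, to 963 to 1015, 722 to 758 and 939 to 1037. The endothelial markers, 3 of 6, summed to 1102 to 1222 in WT, 1594 to 1637 in KO4 and 852 to 1450 in KO8. The 10 cardiomyocyte markers summed to 383 to 486 in WT, 273 to 277 in KO4 and 338 to 342 in KO8. For the primed epiblast markers, 4 of 6, the sums were 662 to 823, 1039 to 1428 and 1040 to 1861. Naive pluripotency markers, 9 of 10, summed to 1509 to 2335, 1431 to 1500 and 2210 to 3835. No marker of these lists was at 0. In bulk cultures more cells of a type and more RNA per cell cannot be told apart, and the part of these markers in the changes of the guidance genes was not tested.

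CM cultures held the most and the largest changes. In KO4, 28 of 37 members were called, 13 higher and 15 lower (75.7%, against 52.0% of all genes, with 23.7% higher and 28.3% lower). These 37 include Epha5, Epha8 and Epha10, which reached the filter only in the KO4 table, through the KO4 libraries. Epha5 and Epha8 are among the 13 higher, so the filter favoured these calls. In KO8, 17 of 34 members were called, 8 higher and 9 lower (50.0%, against 23.6%, with 11.3% higher and 12.3% lower). Both clones shared 10 of 34 with one sign, 3 higher and 7 lower (29.4%, against 12.0% of all genes, with 4.06% higher and 7.99% lower). KO8 calls numbered 8 without KO8 a and 9 without KO8 b, and the shared calls 6 without KO8 a, KO8 b or WT b. No share of all genes is given for these refits. With all libraries, a further 5 members were called in both clones in opposite directions (against 5.32% of all genes). The median absolute log2 fold change of the members was 0.87 in KO4 and 0.49 in KO8, beside 0.54 and 0.29 over all genes.

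The members that fell in both CM clones include genes of vessels and of the semaphorin system. Sema3g, a class 3 semaphorin made by arterial endothelium, had 395 and 487 normalized reads in WT, 6.16 and 16.8 in KO4, and 150 and 130 in KO8. It fell by 5.28 on the log2 scale in KO4 (SE 0.41, adjusted p = 6.49e-06) and by 1.64 in KO8 (SE 0.16, adjusted p = 0.000126). Plxnc1 had 1362 and 1153 in WT, 75.9 and 71.5 in KO4, and 370 and 447 in KO8 (log2 fold changes -4.07, SE 0.14, adjusted p = 2.03e-07, and -1.62, SE 0.12, adjusted p = 3.8e-05). Its ligand Sema7a, a semaphorin with a lipid anchor, had 336 and 352 in WT, 35.9 and 50.5 in KO4, and 233 and 228 in KO8. It fell by 2.98 (adjusted p = 6.34e-06) and by 0.58 (adjusted p = 0.0122), the latter lost when either KO8 library was left out. Robo4, the endothelial Robo, had 172 and 155 in WT, 8.21 and 22.1 in KO4, and 64.8 and 80.9 in KO8 (log2 fold changes -3.49, SE 0.43, adjusted p = 0.000129, and -1.16, SE 0.21, adjusted p = 0.00372), and the KO4 call was lost without WT a (adjusted p = 0.0543). For each of these 4 genes WT was highest, KO4 lowest and KO8 between, with no overlap of groups.

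The stretches before the starts of Sema3g, Robo4 and Plxnc1 are shown as examples, picked after their values were seen. That of Sema7a is not shown, and a shared regulator was not tested. Promoters were matched for 59 of the 68 members in RefSeq (GRCm38.p6). Printed 5′ to 3′ are the 250 bases upstream of the start, with GGAAG, the core of many ETS sites, or its complement CTTCC in capitals. Sema3g lies on the plus strand at chr14:31217623-31217872, Robo4 on the plus strand at chr9:37401722-37401971 and Plxnc1 on the minus strand at chr10:94944846-94945095.
Sema3g: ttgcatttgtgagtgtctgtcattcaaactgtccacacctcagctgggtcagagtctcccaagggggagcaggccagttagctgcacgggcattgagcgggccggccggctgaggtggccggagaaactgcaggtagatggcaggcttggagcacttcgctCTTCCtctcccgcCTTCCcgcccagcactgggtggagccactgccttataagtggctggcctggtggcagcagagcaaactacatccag
Robo4: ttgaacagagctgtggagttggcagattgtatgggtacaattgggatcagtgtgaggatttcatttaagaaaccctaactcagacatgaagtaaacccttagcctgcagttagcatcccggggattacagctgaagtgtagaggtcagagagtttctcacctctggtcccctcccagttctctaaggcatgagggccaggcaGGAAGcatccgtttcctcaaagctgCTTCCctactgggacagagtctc
Plxnc1: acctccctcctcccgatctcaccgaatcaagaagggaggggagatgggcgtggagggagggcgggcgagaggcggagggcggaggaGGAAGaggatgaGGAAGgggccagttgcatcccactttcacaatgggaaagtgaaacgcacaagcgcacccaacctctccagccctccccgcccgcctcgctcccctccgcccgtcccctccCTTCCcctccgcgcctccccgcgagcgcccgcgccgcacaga
Sema3g and Robo4 hold 2 matches each and Plxnc1 3, on either strand. Of 32851 promoter windows of this length, 64.1% hold at least 1, so a match is common. GGGCGG, a box of Sp family factors, occurs on either strand once in Sema3g, in 4 places in Plxnc1 and not in Robo4, and in 32.7% of all windows. Plxnc1 holds 22 CG dinucleotides, Sema3g 8 and Robo4 2, against a median of 6 over all windows.

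Sema3d and Ntn1 fell further in KO8 than in KO4. Sema3d had 284 and 359 normalized reads in WT, 126 and 88.3 in KO4, and 34.7 and 45.1 in KO8, at -1.59 (SE 0.21, adjusted p = 0.00022) and -2.98 (SE 0.23, adjusted p = 3.8e-05). Ntn1 had 680 and 911 in WT, 569 and 470 in KO4 and 192 and 150 in KO8, at -0.61 (SE 0.15, adjusted p = 0.00697) and -2.21 (SE 0.17, adjusted p = 4.23e-05). The KO4 call of Ntn1 was lost without KO4 b or WT b (highest adjusted p = 0.136). Epha1 had 462 and 396 in WT, 252 and 361 in KO4 and 307 and 299 in KO8, at -0.50 in each clone (adjusted p = 0.0353 and 0.0219), and each call was lost in 3 of 4 fits without 1 library.

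The receptors Epha3, Ephb1 and Robo3 rose in both CM clones. Epha3, which binds Efna5, had 26.1 and 17.8 normalized reads in WT, 46.2 and 57.8 in KO4, and 185 and 105 in KO8 (log2 fold changes 1.23, SE 0.38, adjusted p = 0.0217, and 2.64, SE 0.35, adjusted p = 0.000581). Ephb1, a receptor for class B ephrins, had 99.7 and 81.9 in WT, 279 and 240 in KO4, and 136 and 165 in KO8 (1.51, SE 0.20, adjusted p = 0.000168, and 0.72, SE 0.21, adjusted p = 0.0345). Robo3, the Robo that lets commissural axons cross the midline, had 68 and 44.4 in WT, 176 and 141 in KO4, and 115 and 126 in KO8 (1.50, SE 0.28, adjusted p = 0.00144, and 1.11, SE 0.27, adjusted p = 0.0135). In Robo3 the clones did not differ detectably from each other (0.39, adjusted p = 0.226). Without 1 library, the KO4 call of Epha3 and the KO8 call of Ephb1 were lost in 3 of 4 fits each, and the KO8 call of Robo3 without KO8 a or KO8 b.

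**Figure D4:**
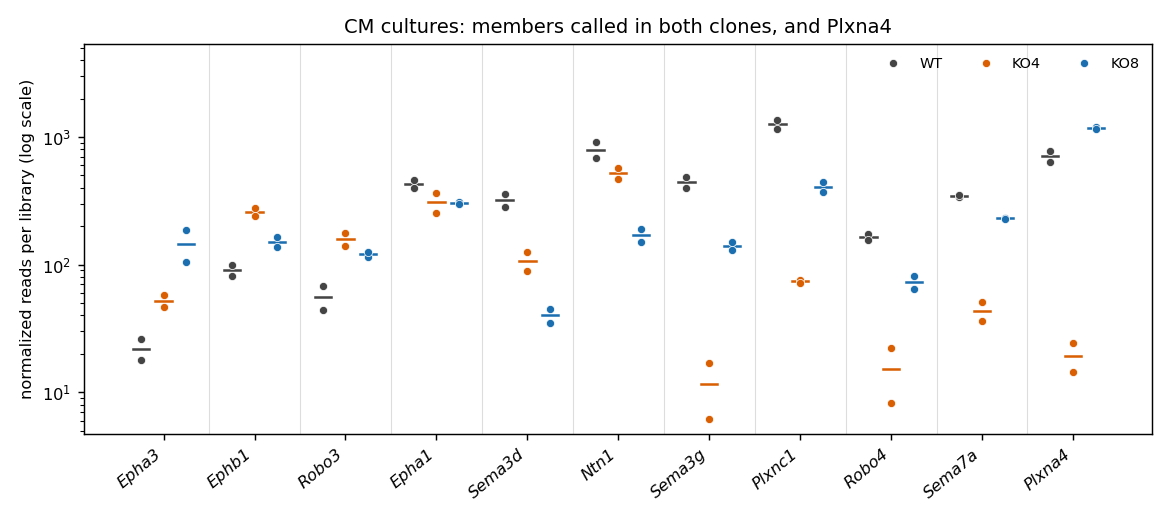
Normalized reads (log axis) in CM cultures of the 10 members with calls of one sign in both clones, and of Plxna4. Points are the 2 libraries per group and bars the group means. KO4 lies far below WT and KO8 in Sema3g, Plxnc1, Robo4, Sema7a and Plxna4, whereas KO8 is lowest in Sema3d and Ntn1 and highest in Epha3.

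The clones differed from each other in 26 of the 34 members tested in CM cultures (76.5%, against 51.5% of all genes), 12 higher and 14 lower in KO4 (against 22.5% and 28.9% of all genes). Plxna4, a plexin of sensory and sympathetic axons, differed most. It had 780 and 635 normalized reads in WT, 14.4 and 24.2 in KO4, and 1188 and 1145 in KO8, so that KO4 fell by 5.16 on the log2 scale (SE 0.27, adjusted p = 7.84e-07) and KO8 rose by 0.73 (SE 0.11, adjusted p = 0.00104). The difference between the clones was -5.89 (SE 0.21, adjusted p = 6.75e-09). It was -3.64 for Sema3g, -2.45 for Plxnc1, -2.41 for Sema7a and -2.33 for Robo4, with adjusted p of at most 0.000504. Beside Plxna4, the members called in opposite directions were Ntn3 (-0.87 in KO4 and 0.53 in KO8), Robo2 (-0.64 and 0.42), Sema5a (-0.47 and 0.44) and Sema6b (-0.65 and 0.46). Of these 5, only Plxna4 kept its KO8 call without each library in turn.

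By family, the KO4 calls in CM cultures (23.7% of all genes higher and 28.3% lower) were split in most. Of 7 Eph receptors tested, 5 were higher and 1 lower, but Epha5, Epha8 and Epha10 reached the filter only in the KO4 table, through the KO4 libraries, and among the 4 tested in both clones 3 were higher and 1 lower. Of 4 class 3 semaphorins 3 were lower, while Sema3a and Sema3e, above the limit of recovery, went the other way, as described below. Of 10 semaphorins of classes 4 to 7, 4 were higher and 3 lower, of 4 ephrins 1 and 2, of 3 Robos 1 and 2, and of 3 netrins 0 and 2. No lean of a family was tested. Epha5, a receptor of retinal and cortical axons, had 8.38 and 3.95 normalized reads in WT, 49.3 and 66.2 in KO4, and 1.88 and 2.05 in KO8. It passed the filter only through its KO4 libraries, so these levels are a description. Sema5b had 73.6 and 78.9 in WT, 358 and 307 in KO4, and 118 and 86.0 in KO8, and rose in KO4 by 2.11 (SE 0.18, adjusted p = 1.39e-05). Unc5a had 124 and 75.0 in WT, 268 and 278 in KO4, and 90.1 and 80.9 in KO8, and rose in KO4 by 1.49 (SE 0.24, adjusted p = 0.000628). Neither passed the test in KO8 (adjusted p = 0.27 and 0.698). Sema3c moved in KO8 instead, with 405 and 445 in WT, 485 and 490 in KO4 and 105 and 129 in KO8 (KO8 log2 fold change -1.86, SE 0.16, adjusted p = 7.41e-05).

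More members of the CM stage had base means over 1000 and reads that were still recovered, and were fitted in the added alternative. Recovery at this level succeeds mainly where 1 of the tables has a low mean, so these genes are chosen for a difference between the clones and are described without a count. Efna1 had 1119 and 1307 normalized reads in WT, 84.2 and 74.7 in KO4 and 1203 and 1019 in KO8. Unc5c, a netrin receptor, had 1460 and 1201 in WT, 154 and 225 in KO4 and 1086 and 1234 in KO8. Sema6d, a ligand of Plxna1 in the developing heart, had 1004 and 1198 in WT, 141 and 167 in KO4 and 884 and 829 in KO8. In KO4 their log2 fold changes were -3.92, -2.82 and -2.83, each with an adjusted p of at most 3.04e-06. Plxna2 had 1191 and 608 in WT, 146 and 207 in KO4, and 1221 and 1210 in KO8, and its WT libraries lay far apart. Sema3e went the other way, with 501 and 462 in WT, 1503 and 1816 in KO4, and 277 and 305 in KO8 (1.78, adjusted p = 2.48e-06, and -0.72, adjusted p = 0.0027). Sema3a, the classic collapsing factor for growth cones, had 1140 and 1265 in WT, 1390 and 1593 in KO4, and 409 and 525 in KO8 (0.31, adjusted p = 0.0195, and -1.37, adjusted p = 0.000128).

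For 22 members of the CM stage the reads could not be recovered, and only the authors' means over both groups of a table are known. Because the WT libraries enter both tables, the larger base mean divided by the smaller is the least ratio that the clone means can have, apart from the slightly different scale of the tables. For Nrp1, the neuropilin that also serves Vegfa signalling in endothelium, the base mean was 2616 in the KO4 table and 11308 in the KO8 table, so the KO8 level was at least 4.32-fold higher than that of KO4. Nrp1 lies on chromosome 8, where both clones were raised. The same bound was 2.23-fold for Epha7, higher in KO4, and 2.06-fold for Slit3, 1.94-fold for Efnb1, 1.66-fold for Nrp2 and 1.53-fold for Plxnd1, all higher in KO8. Without values per library, these have no SD and no test.

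Cell type markers in CM cultures moved with these genes. Emcn, the only endothelial marker of 6 with recovered reads, had 571 to 768 normalized reads in WT, 3.08 to 6.31 in KO4 and 230 to 241 in KO8. The neural progenitor markers, 7 recovered of 10, summed to 90.3 to 139 in WT, 3917 to 3929 in KO4 and 164 to 171 in KO8. Over all 10 of them, base means that pool WT with the clone summed to 12960 for KO4 and 4648 for KO8. As above, recovered markers may be chosen for a difference between the clones. The neuron markers, 7 of 8, summed to 2207 to 2499 in WT, 3860 to 3881 in KO4 and 2107 to 2185 in KO8. The blood markers, 3 of 5, summed to 961 to 1094 in WT, 44.1 to 68.4 in KO4 and 3637 to 3775 in KO8, and the endoderm markers, 4 of 6, to 1519 to 2976, 137 to 293 and 3582 to 3622. Pln, a regulator of the cardiac calcium pump, was at 0 in both KO4 libraries against 47.5 and 61.2 normalized reads in WT, and no marker was at 0 in all groups. Stem cell markers moved too. The primed epiblast markers, 3 of 6, summed to 917 to 1385 in WT, 3956 to 4408 in KO4 and 694 to 851 in KO8. The 10 naive pluripotency markers summed to 3571 to 3781, 3933 to 5573 and 2703 to 2823. Of 9 tested, 6 were higher and 2 lower in KO4, and 0 higher and 8 lower in KO8. The cultures therefore differed in the recovered markers of several cell types at once. The part of this in the guidance genes was not tested.

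The difference between the effect in NPC cultures and that in CM cultures was tested for 28 members, with all libraries of both stages in 1 fit. In both clones it passed with the same sign for 6, 4 higher and 2 lower in NPC cultures (21.4%, against 6.14% of all genes, with 4.07% higher and 2.07% lower). Plxnc1 had an effect in NPC cultures above that in CM cultures by 4.66 in KO4 (SE 0.23, adjusted p = 2.08e-09) and 2.03 in KO8 (SE 0.23, adjusted p = 5.4e-05). Ntn1 rose in NPC and fell in CM cultures of both clones, and its effects differed by 1.55 in KO4 (SE 0.25, adjusted p = 0.000187) and 3.64 in KO8 (SE 0.25, adjusted p = 2e-06). Ntn4, a laminin-like netrin, differed by 1.34 and 1.85 (SE 0.43 in each, adjusted p = 0.0239 and 0.00784). Sema3d fell at both stages, and its effects differed by 0.97 and 1.41 (adjusted p = 0.0301 and 0.00759). In the other direction stood Ephb6, a kinase-dead Eph receptor, at -1.10 and -1.09 (SE 0.24 in each, adjusted p = 0.00253 and 0.00587), and Epha3 at -0.99 and -1.91 (SE 0.37 in each, adjusted p = 0.0476 and 0.0024). Sema3c and Sema4d, singled out after their values were seen, passed in both clones with opposite signs, at -1.30 in KO4 and 0.93 in KO8 for Sema3c and -0.63 and 0.99 for Sema4d. Without 1 library at a time the count of 6 ranged from 3 to 8, with the lowest without the NPC library KO4 b.

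**Figure D5:**
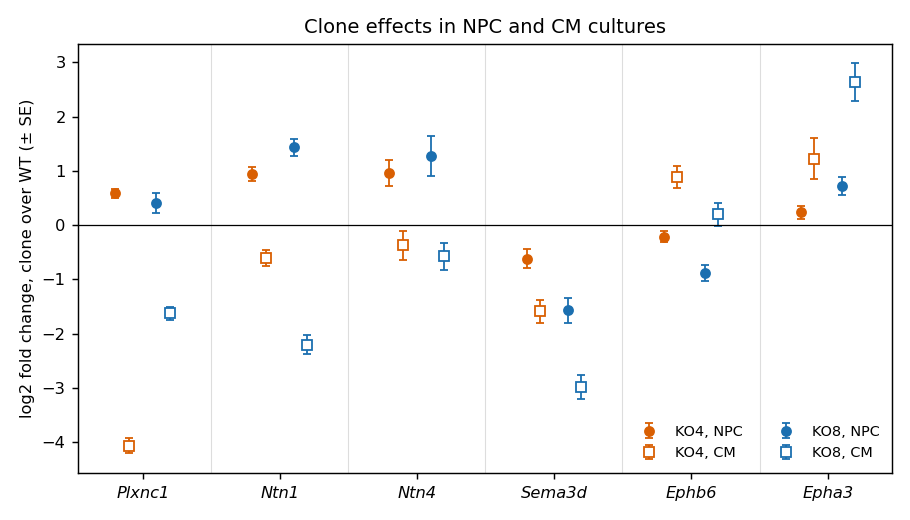
Log2 fold change of each clone over WT with its SE in NPC cultures (filled circles) and CM cultures (open squares) for the 6 members whose effects differed between these stages in both clones. Plxnc1, Ntn1 and Ntn4 lie above 0 in NPC and below 0 in CM cultures in both clones, Sema3d lies lower in CM cultures, and Ephb6 and Epha3 lie higher there.

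Over the 4 stages, 20 members had a call of one sign in both clones at least once, 3 of them at 2 stages or more. Over all genes no such count across stages was made, so these numbers are a description. At single stages, 5.58% to 13.2% of all genes had such a call. Epha1 was higher in naive and lower in primed cells and CM cultures, Ntn1 was higher in NPC and lower in CM cultures, and Sema3d was lower in both cultures. As described above, the calls of Epha1 in primed cells and CM cultures were lost in some fits that left out a library. So were the NPC calls of Sema3d, the NPC call of Ntn1 in KO8 and its CM call in KO4. Only 7 members were in the fits of all 4 stages, because others lay under the filter or above the limit of recovery at some stage (in naive cells 16 and 35 of the 68), so that absence from this count at a stage is often absence of a test. Unc5d, the remaining member on chromosome 8 and a receptor of Flrt2, had 28.4 and 20.9 normalized reads in WT, 35.7 and 28.2 in KO4 and 46.8 and 44.2 in KO8 in NPC cultures, and passed in neither clone (adjusted p = 0.607 and 0.223). In CM cultures it had 24.2 and 20.7, 12.3 and 10.5, and 31.0 and 32.8, and the clones differed by -1.41 (adjusted p = 0.0115, lost without KO8 a or KO8 b), beside chromosome 8 medians of 0.49 in KO4 and 0.52 in KO8.

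Further genes of the pathway came from a list of 60 co-receptors, other ligands and transducers. In naive cells 11 were tested in both clones, of which 2 rose and 2 fell in both (against 7.7% and 5.54% of all genes). Cxcl12, a chemokine that guides migrating neurons, changed by -1.64 and -1.80 (adjusted p = 0.000256 and 0.000212), and the adhesion molecule L1cam by 0.90 and 1.06 (adjusted p = 0.0383 and 0.0146). In primed cells 3 of 39 rose and 5 fell in both (against 4.81% and 5.62%). Ablim1, an actin-binding protein, changed by -1.38 and -1.40 (adjusted p = 2.81e-05 and 1.31e-06). In NPC cultures 5 of 30 rose in both, namely the netrin receptor Dcc (1.41 and 1.78, adjusted p = 1.64e-06 and 0.017), Nrcam (1.43 and 1.61, adjusted p = 1.96e-07 and 0.0108), Dpysl4 (1.38 and 1.84), L1cam (1.36 and 1.88) and Lrig1 (0.91 and 1.14), and 2 fell (against 3.59% and 1.99%). In CM cultures 0 of 26 rose and 5 fell in both (against 4.06% and 7.99%), among them the membrane-anchored netrins Ntng1 (-3.77 and -2.29, adjusted p = 0.000231 and 0.0047) and Ntng2 (-2.73 and -2.51, adjusted p = 0.00156 and 0.00674).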

How the data were processed

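RNA of V6.5 cells was sequenced in 27 libraries and grouped by the sample labels. Per the submitters' processing notes the authors used Trim Galore 0.6.7, HISAT2 2.2 on mm9, featureCounts and DESeq2 1.46.0. Each of the 8 deposited tables holds, for 1 clone against WT at 1 stage, the base mean, which is the authors' mean normalized signal over the libraries compared (reads divided by size factors). The fold change, its error, the Wald statistic and the p-values of the authors' own comparisons fill the other columns and were not used.

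Reads per library were recovered as follows. A gene with 1 read in 1 library shows the value of 1 read of that library. With these values, the whole reads that give both printed base means of a stage were found by lattice reduction (Python 3.11.15, numba 0.67.0) and accepted where 1 solution held at least 99% of the weight. The weight favours solutions whose libraries of a group lie close together and whose groups lie near a common level. Libraries found in both tables are WT, and those in 1 table are the clone of that table. Genes with a base mean under 100 (naive) or 1000 (other stages) were used. The recovery and the fits were tested on simulated data. For the recovery, simulated reads were drawn around the recovered ones, with the relative spread that the weight assumes.

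The tests used limma 3.58.1 in R 4.3.3 (lmFit, eBayes with trend) on log2(normalized reads + 1) for genes whose base mean reached 10, with calls at an adjusted p under 0.05. Each clone was fitted with the WT libraries of its stage. KO4 was compared with KO8 in a fit of all libraries of a stage, and effects in NPC with those in CM cultures in a fit of both stages. Members named are those called in both clones (at most 10 per stage), the largest differences between clones or between NPC and CM cultures (at most 5 each), those with the highest WT level of a family and those on chromosome 8, with others where the text describes a family, and up to 4 other pathway genes per stage. Positions and exon lengths came from the GENCODE vM1 annotation of mm9. Members, gene lists and tests were chosen with earlier results of these data known. Alternatives covered the pseudocount (0.5 or 4), the filter (none or 50), the scale, voom weights, a shared fit, a minimum absolute log2 fold change of 0.5, genes up to a base mean of 1500 and each library left out.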

Additional observations from a re-analysis of the deposited data

Results flagged for a closer look

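Clone effects differed by a test of the difference itself in the following places. Between KO4 and KO8, 26 members differed in CM cultures and 1 in primed cells. In CM cultures the difference of KO4 minus KO8 on the log2 scale was -5.89 for Plxna4, -3.64 for Sema3g, -2.45 for Plxnc1, -2.41 for Sema7a and -2.33 for Robo4, and each was past the threshold in all fits without 1 library. In primed cells it was -0.32 for Nrp2 and lost without KO4 b or KO8 a. Between NPC and CM cultures, 6 members differed in both clones. The effect in NPC minus that in CM cultures was 4.66 in KO4 and 2.03 in KO8 for Plxnc1, 1.55 and 3.64 for Ntn1, 1.34 and 1.85 for Ntn4, -1.10 and -1.09 for Ephb6, and -0.99 and -1.91 for Epha3. The groups hold 2 or 3 libraries, so that no test for a single outlying library was made.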

How the results depend on the processing

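No paired analysis was possible because the recovered libraries carry no replicate number, so no replicate block could be fitted. Of the log2 fold changes of named genes under all alternatives, 1293 kept their direction and side of the threshold, 112 lost the call and 1 gained it (Efnb2 in naive KO4 without WT c). A further 3 changed sign, none of them called: Efnb2 in naive KO8 without WT b (-0.14, in a range up to 0.39), and Nrp1 in primed KO4 without KO4 a (0.14) or WT b (0.36, in a range from -0.62). Of the counts, 221 stayed within 1.5 times the reported value and 42 did not. In naive cells a base mean of at least 50 left 1 call in KO4, 1 in KO8 and 1 in both, and a pseudocount of 4 gave 1 difference between clones. In primed cells no filter on low values left 3 calls in KO4, 5 in KO8, 2 in both and 0 differences between clones. An absolute log2 fold change of at least 0.5 left 5, 6, 3 and 0, and centring on genes outside chromosome 8 left 2 in both. In NPC cultures KO4 had 6 calls with all libraries of the stage in 1 fit and KO8 had 6 with voom weights, and the clones differed in 1 member with a pseudocount of 4, scaling by total reads, centring outside chromosome 8 or genes up to a base mean of 1500. The cause was not tested.

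Without 1 library at a time, naive counts ranged from 4 to 6 in KO4, 2 to 4 in KO8 (lowest without KO8 c), 2 to 4 in both and 0 to 1 between clones. Primed counts ranged from 7 to 8 in KO4, 6 to 7 in KO8 (6 without KO8 a, WT a or WT b) and 3 to 5 in both (3 without KO4 b, KO8 a or WT b). NPC counts ranged from 12 to 18 in KO4, 0 to 19 in KO8, 0 to 10 in both and 0 to 17 between clones. CM counts ranged from 21 to 25 in KO4, 8 to 16 in KO8, 6 to 9 in both and 22 to 27 between clones, and the NPC to CM count from 3 to 8. These fits lose a library, and with 2 per group the lone one is assumed to vary like the other group. No shares of all genes are given for them. Members whose reads were not recovered have no test. Those above the limit with recovered reads were fitted only in the alternative for base means up to 1500. Low members in stem cells rest on few reads.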
